A study of Arabidopsis thaliana with 53 samples.

Results

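A set of 10 nuclear genes that control greening and plastid transcription in Arabidopsis were followed through 53 leaf libraries, each from 1 plant. They were taken by identifier, by their known roles and not by a threshold on measured values, although earlier results of these data were known, and all 10 of 10 were found among the 27501 genes of the count table. The set holds the GOLDEN2-LIKE factors GLK1 (AT2G20570) and GLK2 (AT5G44190), the GATA factors GNC (AT5G56860) and CGA1 (AT4G26150), the sigma factors SIG1 (AT1G64860), SIG2 (AT1G08540), SIG5 (AT5G24120) and SIG6 (AT2G36990), the phage-type polymerase RPOTP (AT2G24120, also SCA3), and GUN1 (AT2G31400). The plants descend by selfing from M1 seedlings grown on medium with 160 µM etoposide, a topoisomerase II inhibitor, or with its solvent DMSO. Etoposide-derived plants were M3 and comprised 6 virescent plants, 6 BR-like dwarf plants and 6 short-internode dwarf plants, with 4 relatives without the phenotype for each of these lines. A variegated line gave 10 green plants without variegated progeny, 3 green plants with variegated progeny and 1 white plant. The controls were 9 DMSO plants, which the labels place in the M2 and the text of the study in the M3 generation, so treatment and generation cannot be told apart if the labels hold. In each of the 3 phenotype lines the library names place the affected plants in 2 families, each from 1 M2 parent, and the relatives in 1 further family, so phenotype and family cannot be told apart either. Each line goes back to 1 treated M1 plant, so plants of a line are kin and not independent mutants.

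Greening needs proteins from both the nucleus and the plastid. GLK1 and GLK2 are partly redundant activators of nuclear genes for light-harvesting proteins and chlorophyll synthesis, and GNC and CGA1, which respond to nitrate and cytokinin, also promote chlorophyll accumulation. In the plastid, the phage-type polymerase RPOTp transcribes housekeeping genes, among them those of the core of the second polymerase, the plastid-encoded polymerase (PEP), and the nuclear-encoded sigma factors direct PEP to its promoters. GUN1 is a plastid pentatricopeptide repeat protein through which the state of the plastid alters nuclear gene expression. In leaves that lack functional plastids, nuclear genes for photosynthesis are typically repressed through this retrograde route.

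The bases just upstream of 7 of the genes are shown, those of the members that lay past 2-fold in the white plant (GLK1, CGA1, RPOTP and SIG5) and of the pairs plotted with their deviations (SIG2 with SIG6, GLK2 with SIG5). The window was the 250 bases before the annotated gene start in RefSeq assembly TAIR10.1, shortened where a neighbouring gene reaches into it, and each line runs 5′ to 3′ on the strand of the gene and ends 1 base before the gene start. Capitals mark matches, on either strand, to CACGTG (the G-box, bound by light-signalling factors), AAAATATCT (the evening element of clock-controlled genes), CCAATC (a motif enriched among GLK-bound regions) or GATAAG (which holds the GATA core). SIG2 and SIG6 had 132 and 106 bases free of a neighbouring gene.
GLK1, chr2:8855052-8855301, plus strand: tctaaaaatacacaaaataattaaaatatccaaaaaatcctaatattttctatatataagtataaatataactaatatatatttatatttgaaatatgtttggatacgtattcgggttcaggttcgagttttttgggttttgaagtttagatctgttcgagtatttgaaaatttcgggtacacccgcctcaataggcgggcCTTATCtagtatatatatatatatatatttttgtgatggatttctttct
CGA1, chr4:13252834-13253083, plus strand: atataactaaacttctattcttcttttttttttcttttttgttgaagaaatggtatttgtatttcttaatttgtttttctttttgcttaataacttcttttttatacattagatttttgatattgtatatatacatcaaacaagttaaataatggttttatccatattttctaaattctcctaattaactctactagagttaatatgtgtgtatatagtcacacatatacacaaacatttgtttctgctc
GLK2, chr5:17798012-17798261, plus strand: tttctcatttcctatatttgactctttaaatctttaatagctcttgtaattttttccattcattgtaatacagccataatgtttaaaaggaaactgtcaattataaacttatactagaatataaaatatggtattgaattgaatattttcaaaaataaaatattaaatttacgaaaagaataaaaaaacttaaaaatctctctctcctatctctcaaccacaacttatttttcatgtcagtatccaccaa
SIG5, chr5:8160344-8160593, minus strand: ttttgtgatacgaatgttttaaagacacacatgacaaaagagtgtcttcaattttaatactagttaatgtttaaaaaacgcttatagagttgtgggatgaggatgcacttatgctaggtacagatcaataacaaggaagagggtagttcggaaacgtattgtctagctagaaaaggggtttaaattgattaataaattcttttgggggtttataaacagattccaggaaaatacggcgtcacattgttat
SIG2, chr1:2703163-2703294, plus strand: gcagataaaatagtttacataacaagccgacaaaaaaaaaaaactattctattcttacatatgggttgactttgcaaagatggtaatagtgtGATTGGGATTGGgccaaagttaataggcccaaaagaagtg
SIG6, chr2:15540140-15540245, minus strand: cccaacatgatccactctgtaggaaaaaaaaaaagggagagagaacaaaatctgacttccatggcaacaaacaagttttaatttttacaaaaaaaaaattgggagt
RPOTP, chr2:10254642-10254891, minus strand: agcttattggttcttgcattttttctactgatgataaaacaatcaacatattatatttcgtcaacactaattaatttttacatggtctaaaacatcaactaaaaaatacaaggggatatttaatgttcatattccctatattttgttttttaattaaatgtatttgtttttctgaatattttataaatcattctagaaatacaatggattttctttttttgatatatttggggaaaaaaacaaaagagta
Over the full windows, GLK1 held GATAAG starting 49 bases before its start and SIG2 held CCAATC at 40 and 34 bases before its start, both on the opposite strand, and no other member held any of the 4 motifs. Among the 27389 windows of the same length in all annotated genes of the table, 12.3% held GATAAG, 10.2% held CCAATC, 6.5% held the G-box and 2.36% held the evening element. The matches are a description of these letters only.

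Libraries held between 29739361 and 116654254 estimated counts, with a median of 47326147. Levels are given in CPM, counts per 1000000 counts of the library with TMM scaling, and the lowest member count in any library was 47 for CGA1, so counting error was small beside the spread between plants. Libraries DMSO 2, virescent relative 4 and short-internode dwarf relatives 1 and 2 were not part of the authors' own fits and were left out of the tests, but they are kept in the levels below. Short-internode dwarf relative 2 stood apart most clearly, with the lowest SIG1 (18.2 CPM), SIG2 (32.5 CPM) and SIG6 (23.1 CPM) among all 53 libraries and the highest CGA1 (23.6 CPM) outside the white plant. Leaf mesophyll markers were high in every library, with a summed level of 5 genes between 7140 and 44800 CPM, and 3 root markers summed to at most 0.151 CPM. The tissue label was met by these markers, except that the white plant also held transcripts of floral organs, described with its results. In bulk leaf RNA, fewer cells of a type and less RNA per cell cannot be told apart.

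Per kilobase of exon, GLK1 was by far the most abundant member in DMSO plants, at 159 ± 23.8 CPM per kb (SD, n = 9), and its lowest plant exceeded the highest plant of every other member. GUN1 followed at 63 ± 9.34, then SIG2 at 48.7 ± 7.0 and SIG6 at 47.8 ± 8.85, and each of these overlapped the next in the order. SIG2 exceeded SIG6 in only 4 of 9 plants. GLK2 (27.9 ± 11.2) and SIG1 (26.5 ± 7.16) were not separated, nor were RPOTP (16.4 ± 4.47) and GNC (15.4 ± 5.88), and CGA1 (5.11 ± 2.85) and SIG5 (3.75 ± 1.65 CPM per kb) were the lowest. Across all 53 libraries GUN1 varied least, from 143 to 274 CPM, a 1.92-fold range, whereas CGA1 varied 49.1-fold, from 1.01 CPM in virescent plant 1 to 49.6 CPM in the white plant.

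**Figure D1:**
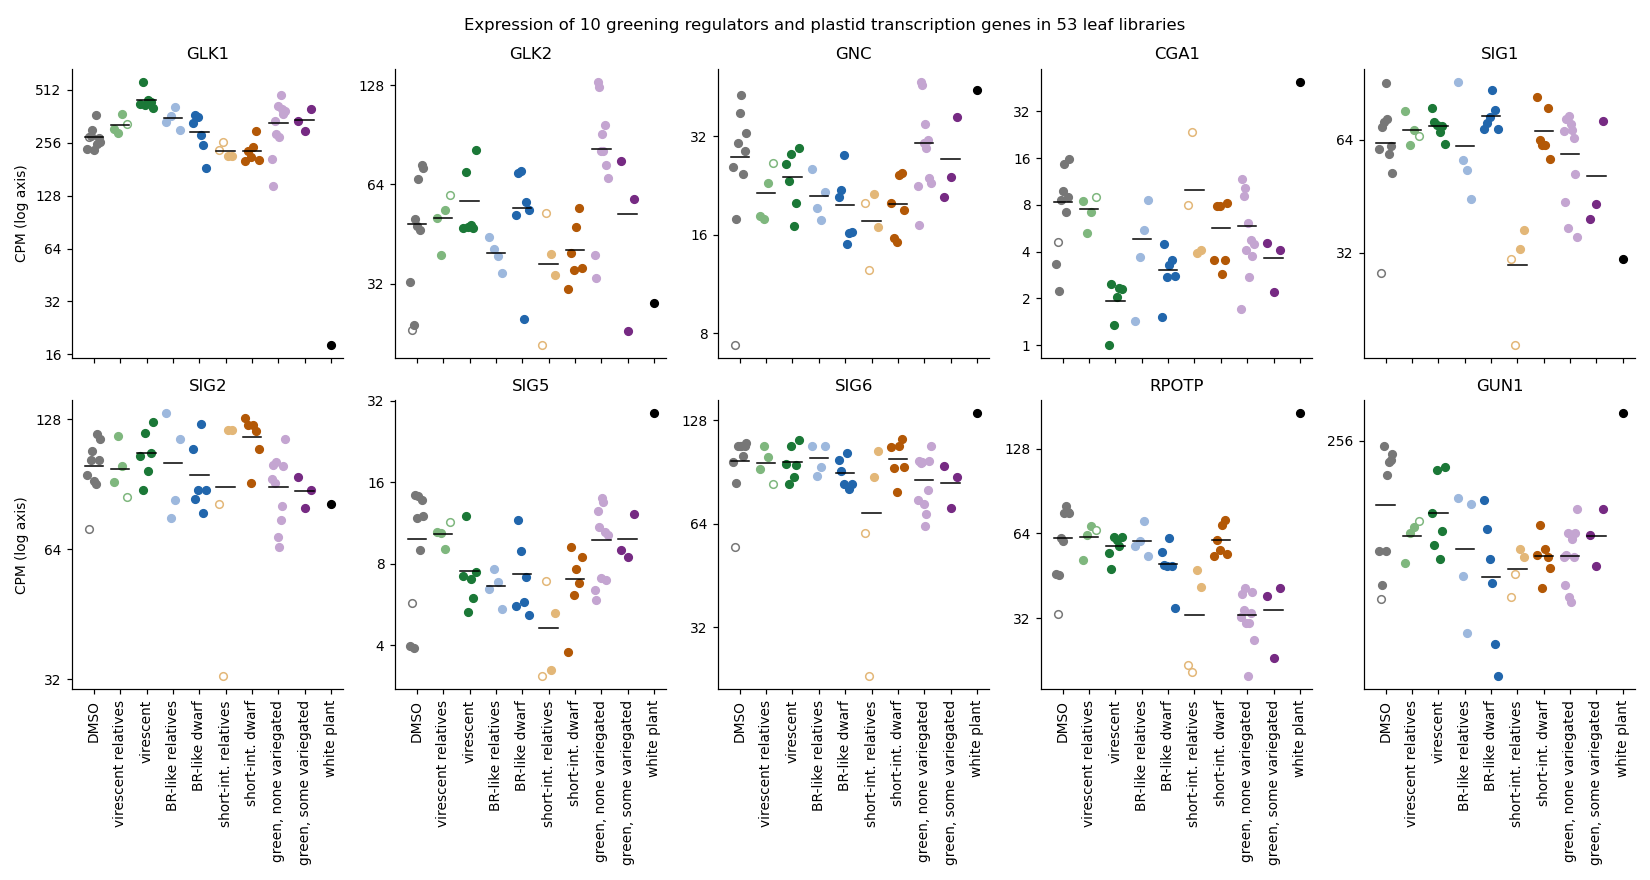
Level of each member in CPM (log axis) in 53 libraries by group; each point is 1 plant, open points are libraries left out of the tests, and bars are means over all plants of the group. Virescent plants lie above their relatives in GLK1 (403 to 569 CPM) and below them in CGA1 (1.01 to 2.46 CPM), and the white plant lies outside all other libraries in GLK1, CGA1, SIG5, SIG6, RPOTP and GUN1.

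Virescent plants are pale as juveniles and green as adults, and the comparison with relatives asks whether greening genes differed in mature leaves. Of the 10 members, 1 rose (GLK1) and 1 fell (CGA1) in virescent plants against their relatives, and no sigma factor, nor RPOTP, GUN1, GLK2 or GNC, passed the test. This is 2 of 10 members where 17.1% of the 19317 genes tested passed, so the share of members is near the background. The median log2 fold change was 0.03 over the members and -0.01 over all genes tested.

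GLK1 was measured at 427, 569, 417, 445, 438 and 403 CPM in virescent plants 1 to 6, and at 305, 290 and 371 CPM in relatives 1 to 3. The lowest virescent plant was above the highest relative, and the left-out relative 4, at 329 CPM, lay among the other relatives. The log2 fold change was 0.48 (SE 0.153, adjusted p = 0.0423, edgeR quasi-likelihood test), a 1.39-fold rise. Both families took part, with a mean of 471 ± 85.1 CPM (SD, n = 3) in family 13B_25 and 429 ± 22.7 CPM (n = 3) in family 13B_46. This call was close to the threshold: it was lost without virescent plant 1, 2, 3, 4 or 5, relative 1 or 2, or DMSO plant 8, with log2 fold changes between 0.39 and 0.5 and adjusted p between 0.0577 and 0.163 in these fits, and with either family alone (adjusted p = 0.0904 for 13B_25 and 0.167 for 13B_46).

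CGA1, the cytokinin-responsive GATA factor, went the other way. It was measured at 1.01, 2.46, 1.35, 2.05, 2.34 and 2.31 CPM in virescent plants 1 to 6 and at 8.48, 5.29 and 7.22 CPM in relatives 1 to 3. No virescent plant reached even the lowest relative, and relative 4, left out of the test, was at 8.94 CPM. The log2 fold change was -1.87 (SE 0.455, adjusted p = 0.0114), so the mean level was 0.273-fold that of relatives. It was lower in each family, at 1.61 ± 0.758 CPM in 13B_25 and 2.23 ± 0.158 CPM in 13B_46 (SD, n = 3 each), though with 1 family alone the call was lost (adjusted p = 0.0532 for 13B_25 and 0.0996 for 13B_46), as it was without relative 1 (log2 fold change -1.71, adjusted p = 0.0613). Virescent plant 1, which has the lowest CGA1, is listed as a relative without the phenotype in a supplementary table of the study, and the label was kept.

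The paralogs of these members did not pass the test. GLK2 was at 47 to 81.1 CPM in virescent plants and 39.1 to 53.3 CPM in the 3 relatives tested (log2 fold change 0.24, SE 0.301, 95% interval -0.35 to 0.84), and GNC was at 17 to 29.5 against 17.9 to 23 CPM (0.28, SE 0.23, interval -0.17 to 0.73). Whether a paralog pair differed in response was not tested. For most plastid transcription genes the intervals of the difference were narrow. SIG2, with a role in plastid tRNA transcription, differed by 0.05 (interval -0.18 to 0.28), SIG6, an early general sigma factor, by -0.05 (-0.26 to 0.16), SIG1 by 0.01 (-0.25 to 0.28) and RPOTP by -0.09 (-0.43 to 0.25) on the log2 scale. SIG5, the light- and stress-responsive sigma factor, had a wider interval, from -1.15 to 0.31 around -0.42. GUN1 was at 191 to 240 CPM against 189 to 207 CPM (0.09, interval -0.15 to 0.34).

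**Figure D2:**
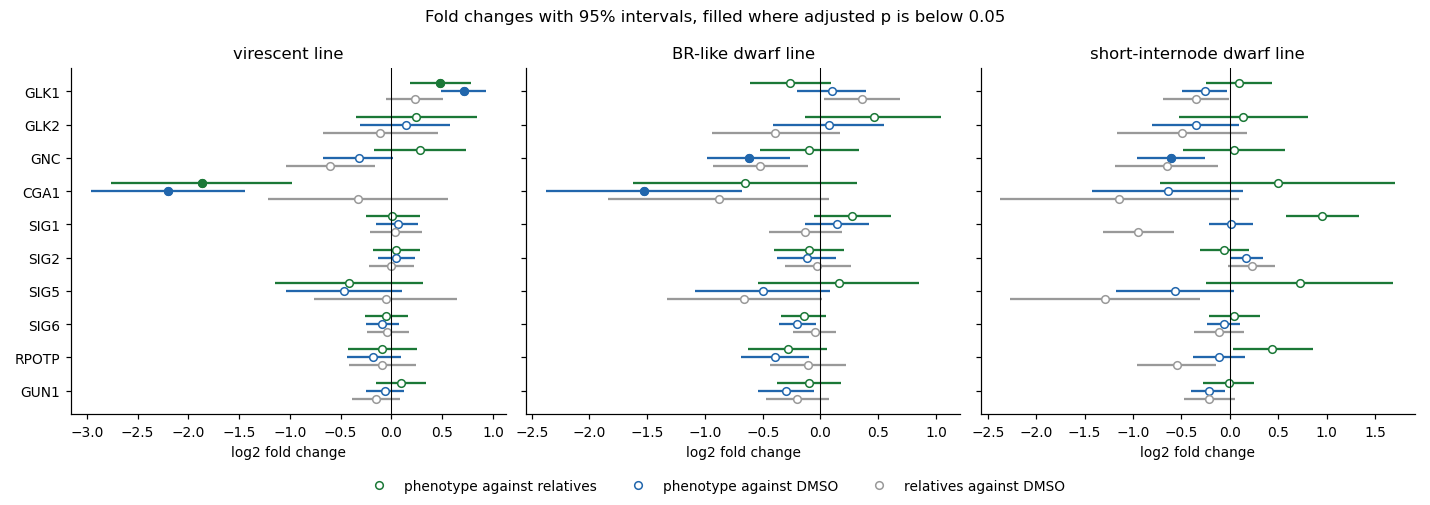
Log2 fold changes of the 10 members in the 3 phenotype lines, for the phenotype against relatives, the phenotype against DMSO and relatives against DMSO; points are edgeR estimates, lines are 95% intervals from the standard errors, and filled points have an adjusted p below 0.05. In the virescent line only GLK1 and CGA1 are filled, GLK1 at 0.48 and 0.71 and CGA1 at -1.87 and -2.2.

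Of 12 genes that GLK factors are known to activate, 11 rose and none fell in virescent plants against relatives by edgeR, and 11 passed by DESeq2, with a median log2 fold change of 1.35 beside -0.01 over all genes tested. The largest rises were those of light-harvesting genes, LHCB3 (log2 fold change 2.04, SE 0.467, adjusted p = 0.00852), LHCB2.2 (1.79, SE 0.41, adjusted p = 0.00864) and LHCB4.2 (1.61, SE 0.374, adjusted p = 0.00914), although LHCB2.2 has near-identical copies among which Salmon divides reads. GUN5, which encodes a subunit of the chlorophyll-synthesizing magnesium chelatase, rose from a mean of 356 ± 35.1 to 894 ± 193 CPM (adjusted p = 0.00156). Against DMSO, 12 of 12 rose in virescent plants (median 1.7, 18.9% of all genes passing) and in BR-like dwarf plants (median 1.32, 14.3%). In short-internode dwarf plants 11 of 12 rose (median 1.08, 17.2%). In green plants of the variegated line 6 of 12 fell and 0 rose (median -0.52, 15.1%). GLK1 itself differed from DMSO by 0.71, 0.1, -0.26 and 0.29 in these groups in turn, and passed only in virescent plants. The part of GLK1 in the levels of these 12 genes was not tested. Against their own relatives 0 of 12 passed by edgeR in BR-like dwarf (median 0.58, 1.97% of all genes) and short-internode dwarf plants (0.78, 0.12%). By DESeq2 1 and 3 of 12 passed in these comparisons. In relatives against DMSO 3 of 12 rose for the virescent line (median 0.53, 2.91%). None passed by edgeR for the BR-like dwarf (0.82, 0.0102%) or short-internode dwarf relatives (0.24, 0.0%). Of 12 proteins associated with PEP none passed by edgeR and 1 by DESeq2, and the list median was -0.12. Of these 12, 5 had an unadjusted p below 0.05, as had 6388 of the 19317 genes tested. SIG3 and SIG4, the other sigma factors that could be matched, did not pass either (log2 fold changes 0.05 and -0.1). Among 14 light and retrograde regulators, 13 were tested and 2 fell by edgeR (4 passed by DESeq2), a share no higher than the 17.1% of all genes. These were the blue-light receptors CRY1 (log2 fold change -0.84, SE 0.168, adjusted p = 0.00404) and CRY2 (-0.44, SE 0.1, adjusted p = 0.00859). Of 10 clock genes none passed by edgeR and 1 by DESeq2 between virescent plants and relatives, 1 had an unadjusted p below 0.05, with summed levels of 584 to 904 and 622 to 738 CPM. Among 5 flower bud markers, which summed to 0.611 to 3.25 CPM in virescent plants and 2.42 to 5.31 CPM in relatives, SEP3 fell (log2 fold change -1.83, SE 0.502, adjusted p = 0.021), and its part in the member values was not tested.

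Against DMSO plants, the same members passed. GLK1 rose by a log2 fold change of 0.71 (SE 0.114, adjusted p = 0.000662) and all 6 virescent plants lay above the 8 DMSO plants tested, at 233 to 369 CPM. CGA1 fell by 2.2 on the log2 scale (SE 0.388, adjusted p = 0.00133), with DMSO plants at 2.23 to 15.7 CPM. These are 2 of 10 members beside 18.9% of all genes tested. In relatives against DMSO no member passed by edgeR or DESeq2, where 2.91% of all genes passed by edgeR. Of the members 1 had an unadjusted p below 0.05, as had 3653 of the 19317 genes tested. Clock genes moved with the comparison with DMSO: 7 of 10 passed, 5 higher and 2 lower, with a list median of 1.05, and DMSO plants had summed clock levels of 203 to 452 CPM. Their part in the difference from DMSO was not tested.

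The DMSO plants were themselves not uniform. They came from 3 lines, and line C13 was lower than both other lines in several members. SIG5 was at 3.92 to 5.73 CPM in the 3 plants of C13 but at 11.8 to 14.4 CPM in line C23 and 8.98 to 13.8 CPM in line C4. GLK2 was at 23.1 to 32.3 CPM in C13 against 46.4 to 73.4 CPM in C4, and CGA1 at 2.23 to 4.63 against 7.15 to 15.7 CPM in C4. RPOTP, at 33.1 to 45.9 CPM in C13, was at 60.1 to 75.7 CPM in C23 and 75.6 to 80 CPM in C4. In none of these 4 genes did C13 overlap the other lines, while for GLK1 the 3 lines overlapped (237 to 280, 233 to 369 and 251 to 271 CPM). These 4 were named after seeing the values, and the share of all genes without such overlap was not counted. The clock gene TOC1 was also lower in C13, at 108 to 141 CPM, than in C23 (172 to 210 CPM) and C4 (181 to 231 CPM), and PRR5 was at 3.47 to 5.06 CPM in C13 and 10.7 to 18.8 CPM in C4. Whether harvest time contributed was not tested.

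Leaving C13 out, an alternative chosen after seeing the data, raised the number of members that differed from DMSO in 6 of 7 comparisons. In virescent plants 5 of 10 members passed (33.1% of all genes): GLK1 remained higher, and CGA1 (log2 fold change -2.5, adjusted p = 1.37e-05), SIG5 (-0.75, adjusted p = 0.00513), GNC (-0.46, adjusted p = 0.032) and RPOTP (-0.32, adjusted p = 0.0203) were lower. In BR-like dwarf plants 6 passed, all lower, beside 23.2% of all genes, and in short-internode dwarf plants 5 passed, all lower, beside 33.2%. In the relatives, 1 member passed for the virescent line (6.37% of genes), 0 by edgeR for the BR-like dwarf line (0.592%, with 4 members at an unadjusted p below 0.05) and 5 for the short-internode dwarf line (15%). The share of all genes at that unadjusted p is not given here. In green plants of the variegated line 3 passed (14.4%). GNC was lower than in C23 and C4 in 5 of these 7 comparisons, with log2 fold changes of -0.46 to -0.78.

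The white plant of the variegated line lay apart from its green relatives in 7 of the 10 members. GLK1 was 18.3-fold lower than the mean of the 13 green plants of its line, CGA1 9.26-fold, RPOTP 5.17-fold and SIG5 2.93-fold higher. GLK2, GNC and SIG2 lay inside the range of the green plants. As there was 1 white plant, no test was made, and an exact permutation test of 1 against 13 plants cannot go below p = 0.0714. By a rule of lying outside the range of all 13 green plants and past 2-fold, 3 members were higher, where 10.6% of 19340 genes were higher by the same rule, and 1 member was lower, where 15.3% of genes were.

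GLK1 was at 18.2 CPM (1206 counts) in the white plant and at 145 to 475 CPM, with a median of 342 CPM, in the green plants, and no other library of the 52 was below 145 CPM. GLK2 was at 28 CPM against 23 to 131 CPM, inside the green range, but 2.68-fold below the green mean (log2 ratio -1.42). Green plant 2 with variegated progeny, at 23 CPM, was the only green plant below it, and the next was at 33.2 CPM. CGA1 stood at 49.6 CPM against 1.71 to 11.7 CPM in green plants and at most 23.6 CPM in any other library, while GNC, at 44.4 CPM, was within the 17.2 to 47 CPM of green plants. Each pair of paralogs thus had 1 member outside the green range and 1 inside it, although both members of a pair lay on the same side of the green mean.

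RPOTP, whose polymerase acts early in plastid development, was at 171 CPM in the white plant, 19.9 to 41.0 CPM in the green plants and at most 80 CPM in all other libraries. The green plants were themselves low in RPOTP, with a mean of 33.1 CPM beside 65.0 CPM in the 8 DMSO plants tested. SIG5 was at 28.8 CPM against 5.87 to 14 CPM. SIG6 (134 against 63.0 to 108 CPM) and GUN1 (274 against 172 to 216 CPM) were above all green plants and all other libraries, but by 1.57-fold and 1.41-fold. SIG1 was lower, at 30.7 CPM against 35.3 to 74.2 CPM, a log2 ratio of -0.89, and 2 left-out libraries, DMSO 2 (28.2 CPM) and short-internode dwarf relative 2 (18.2 CPM), were lower still. SIG2 was inside the green range, at 81.4 CPM against 64.6 to 115 CPM. In total 7 of 10 members lay outside the green range, beside 48.4% of all genes. The median log2 ratio of all genes was -0.12 with TMM scaling and 0.16 when scaled to the library total, and under the latter SIG2 changed from -0.12 to 0.15 while the 4 members past the rule kept their direction. Against the 5 green plants of its own M2 family, 5A_58, the log2 ratios were -4.3 for GLK1, 3.7 for CGA1, 2.34 for RPOTP and 1.62 for SIG5.

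**Figure D3:**
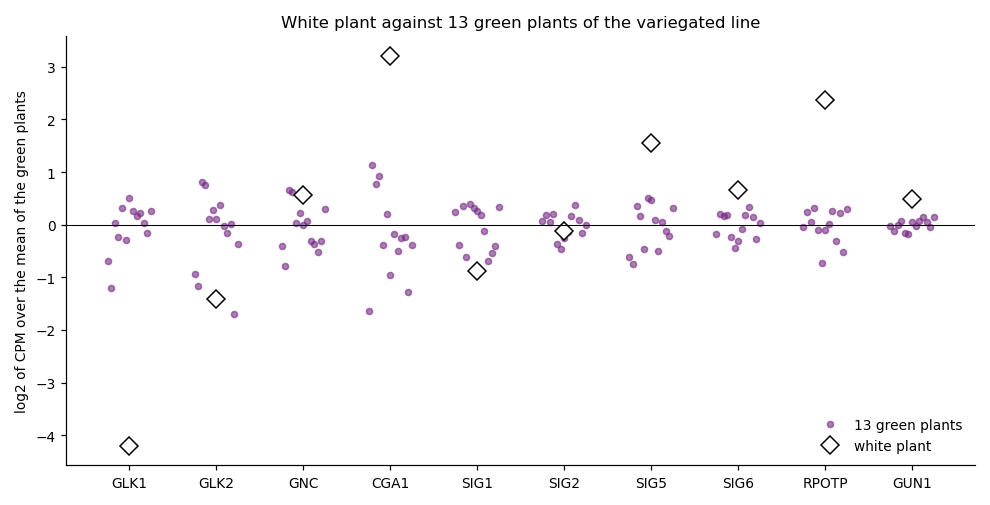
Log2 of CPM over the mean of the 13 green plants of the variegated line, for each green plant (points) and the white plant (diamonds). The white plant is at -4.2 in GLK1, 3.21 in CGA1, 2.37 in RPOTP and 1.55 in SIG5, outside all green plants, and inside their range in GLK2, GNC and SIG2.

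Other plastid transcription genes were also higher in the white plant. Of 12 PEP-associated proteins 9 passed the same rule, all higher, with a median log2 ratio of 1.25 beside -0.12 for all genes, led by PTAC10 (2.1), PTAC12 (1.8) and FLN1 (1.73). For this and the lists below, the rule called 10.6% of all genes higher and 15.3% lower. SIG3 and SIG4 did not pass, at log2 ratios of -0.32 and -0.95. Of the 12 GLK target genes 6 were lower and 1 was higher, with a median of -1.26. LHCB3 (-2.63), LHCB4.2 (-2.47) and LHCB2.2 (-2.47) had the lowest ratios, whereas CRD1, a cyclase subunit of chlorophyll synthesis, was at 416 CPM against a green mean of 187 ± 44.6 CPM (SD, n = 13). Among 14 light and retrograde regulators 3 were higher and 2 lower. HY5, a bZIP activator of light responses, had a log2 ratio of 1.88, its homolog HYH 1.74, and the receptor CRY1 -1.16. Clock genes were also higher in this library, with 4 of 10 higher by the rule, among them PRR7 at 94 CPM against a green mean of 14.7 CPM.

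The white plant also held floral transcripts. The 5 flower bud markers summed to 23.5 CPM against 0.387 to 7.57 CPM in the 13 green plants, with AP1 at 4.71, AP3 at 4.35 and PI at 5.13 CPM beside green means of 0.0128, 0.0338 and 0.0299 CPM. The tapetum marker AMS was at 4.83 CPM and at most 0.198 CPM in any green plant. Its leaf mesophyll markers summed to 7140 CPM, below the 11600 to 30400 CPM of the green plants, with 3 of the 5 lower and LHCB1.1 higher by the rule, while the senescence markers, at 91.7 CPM, lay inside their range of 27.5 to 308 CPM. The part of floral tissue, clock phase or fewer mesophyll cells in the member values of this plant was not tested.

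**Figure D4:**
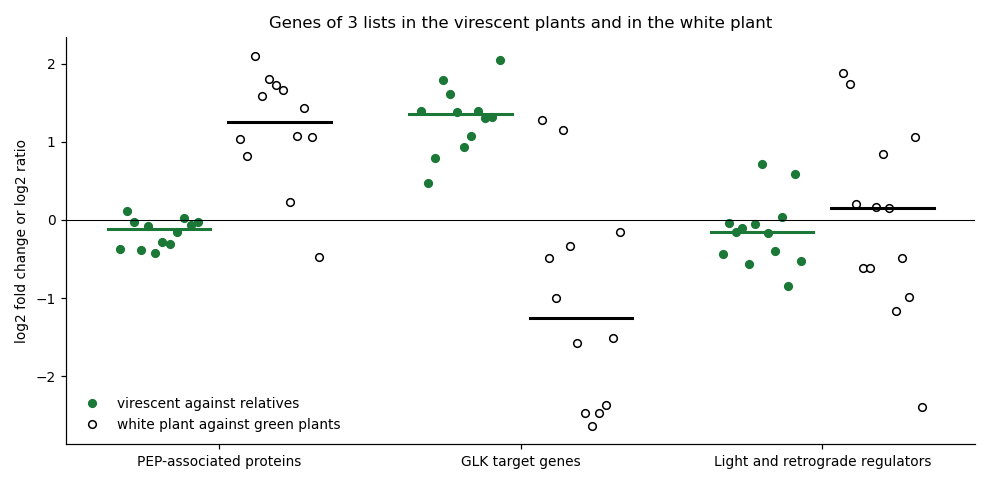
Log2 fold changes in virescent plants against relatives (filled) and log2 ratios of the white plant to the mean of 13 green plants (open) for genes of 3 lists; each point is 1 gene with a mean above 1 CPM in the reference group and bars are medians. GLK target genes lie high in virescent plants (median 1.35) and mostly low in the white plant (median -1.26), and PEP-associated proteins lie near 0 and high (1.25).

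Green plants of the variegated line shared low RPOTP. All 13 green plants were at 19.9 to 41.0 CPM, below the 8 DMSO plants tested at 45.6 to 80 CPM, a log2 fold change of -0.96 (SE 0.157, adjusted p = 0.00211). This was the 1 member of 10 that passed, beside 15.1% of all genes. It was low in all 3 M2 families, with means of 36.6 ± 4.12 CPM in 5A_2 (SD, n = 4), 28.7 ± 5.98 CPM in 5A_3 (n = 4) and 33.2 and 34.2 CPM in the green plants of 5A_58 without and with variegated progeny. The left-out DMSO 2, at 33.1 CPM, lay among the green plants, and the call held with it (adjusted p between 7.93e-07 and 0.0252 over all alternatives). Low RPOTP was not confined to this line. The 4 short-internode dwarf relatives were at 20.6 to 47.6 CPM (mean 32.8 CPM). The 2 of them tested differed from DMSO by a log2 fold change of -0.55 (SE 0.21, adjusted p = 0.195 by edgeR). Between green plants with and without variegated progeny no member passed by edgeR or DESeq2, none had an unadjusted p below 0.05, and 1.93% of all genes passed. The largest difference was that of CGA1, at -0.71 (SE 0.55), with the groups at 2.21 to 4.53 and 1.71 to 11.7 CPM.

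In BR-like dwarf plants no member differed from the relatives by edgeR or DESeq2, and none had an unadjusted p below 0.05, where 1.97% of all genes passed. Against DMSO, CGA1 (log2 fold change -1.53, SE 0.434, adjusted p = 0.0249) and GNC (-0.62, SE 0.183, adjusted p = 0.0308) fell, 2 of 10 members beside 14.3% of all genes. CGA1 was at 1.52 to 4.46 CPM in the dwarf plants and GNC at 15 to 28 CPM, and both overlapped the DMSO plants. In the same comparison 2 of 3 flower bud markers tested rose (SEP3 and AP3), with summed levels of 2.55 to 7.56 CPM in dwarf and 0.603 to 2.79 CPM in DMSO plants. Of 10 clock genes 4 passed, 3 higher and 1 lower, and of 5 mesophyll markers LHCB1.1 rose and RCA fell. The part of these in the member values was not tested. CGA1 lost its call without BR-like dwarf plant 3 or 6 or DMSO plant 6 (log2 fold changes -1.48, -1.51 and -1.38, adjusted p = 0.0585, 0.0601 and 0.0503). GNC lost it without BR-like dwarf plant 4, 5 or 6 or DMSO plant 5, 6 or 9, at log2 fold changes of -0.52 to -0.59. The relatives gave 0 members by edgeR and DESeq2 against DMSO, with 0.0102% of all genes passing by edgeR. Of the members 2 had an unadjusted p below 0.05, as had 1573 of the 19515 genes tested. GLK1 differed between this line and the virescent line: its difference from relatives was 0.72 higher in virescent plants (SE 0.237, adjusted p = 0.0361), where 15.9% of genes passed for the same difference. The BR-like dwarf families were not alike in GLK1. Family 1A_14, at 331 to 370 CPM, lay inside the 304 to 411 CPM of the relatives, and 1A_20, at 183 to 284 CPM, lay below them.

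In short-internode dwarf plants SIG1 had the largest log2 fold change against relatives. It was at 83.3, 64.0, 61.8, 62.0, 77.7 and 56.8 CPM in dwarf plants 1 to 6 and at 32.8 and 36.8 CPM in the relatives tested, 3 and 4. The groups did not overlap, and the left-out relatives 1 and 2 were lower still, at 30.8 and 18.2 CPM. RPOTP did not overlap either, at 53.1 to 71.3 CPM in dwarf plants and at most 47.6 CPM in relatives (log2 fold change 0.44, SE 0.214, adjusted p = 0.555 by edgeR). Only 2 relatives were tested, and the share of all genes without overlap was not counted. The log2 fold change of SIG1 was 0.95 (SE 0.19, adjusted p = 0.0693), so by edgeR 0 of 10 members passed, beside 0.12% of all genes. Of the members 1 had an unadjusted p below 0.05, as had 1752 of the 19236 genes tested. By DESeq2 SIG1 passed, as it did by edgeR with all libraries and without DMSO plant 5. Against DMSO it was the relatives that were low (-0.95, SE 0.185, adjusted p = 0.0959), and the dwarf plants differed from DMSO by 0.01 (SE 0.118). The difference in SIG1 between phenotype and relatives was 0.94 lower in the virescent line than in this line (SE 0.244, adjusted p = 0.0211), beside 5.16% of genes. By edgeR no member passed for the BR-like dwarf line against this line, beside 0.677% of genes. In that contrast 2 members had an unadjusted p below 0.05, and the share of all genes at that p is not given here.

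GNC was the 1 member lower in short-internode dwarf plants than in DMSO plants (log2 fold change -0.61, SE 0.179, adjusted p = 0.0302), beside 17.2% of all genes, at 15.2 to 24.8 against 17.9 to 42.8 CPM. This call was lost without dwarf plant 1, 2, 3 or 6 or DMSO plant 5, 6 or 9, at log2 fold changes of -0.52 to -0.61. For the relatives against DMSO 0 members passed by edgeR and 1, SIG1, by DESeq2, and 0.0% of all genes passed by edgeR. Of the members 4 had an unadjusted p below 0.05, as had 3526 of the 19236 genes tested.

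Some members also varied together between plants of the same group. After removal of group means, 16 of 45 pairs were correlated over 52 libraries without the white plant (adjusted p below the threshold for both Pearson's r and Spearman's rho, permutation within groups), and all 16 were positive. The share of pairs of other genes that would pass was not counted, so the number is not set against a background. SIG2 and SIG6 were closest, with r = 0.90 and rho = 0.81 (permutation p = 1e-05 for each, the smallest that 100000 shuffles can give, adjusted p = 0.00015 and 0.000112), and r was 0.83 without the 2 libraries farthest in SIG2. GLK2 and SIG5 followed (r = 0.69, rho = 0.70, permutation p = 1e-05 each, adjusted p = 0.00015 and 0.000112, r = 0.68 without 2 libraries), then SIG6 and RPOTP (r = 0.69, rho = 0.68, the same p-values, r = 0.62 without 2 libraries). GLK1 and CGA1, which moved in opposite directions in virescent and white plants, did not pass as a correlation within groups (r = -0.05, permutation p = 0.736, adjusted p = 0.751). GNC and CGA1 did not pass either (r = 0.14, permutation p = 0.416, adjusted p = 0.566). Groups of 6 plants or more held 2 or 3 families, and family means were not removed. Differences between families are thus part of these correlations, and the shuffles took plants of different families as exchangeable. In green plants without variegated progeny, SIG2 and SIG6 averaged 72.1 and 71.2 CPM in family 5A_3 and 96.5 and 91.3 CPM in 5A_2.

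The number of pairs depended on the libraries that stood apart. Without the 4 left-out libraries 12 of 45 pairs passed, with r = 0.79 for SIG2 and SIG6 and 0.65 for GLK2 and SIG5. Without DMSO line C13, 9 of 45 pairs passed over 49 libraries. SIG2 and SIG6 then had r = 0.92 and GLK2 and SIG5 r = 0.60, whereas CGA1 and SIG5 dropped from r = 0.51 to r = 0.31 (permutation p = 0.0644, adjusted p = 0.161).

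**Figure D5:**
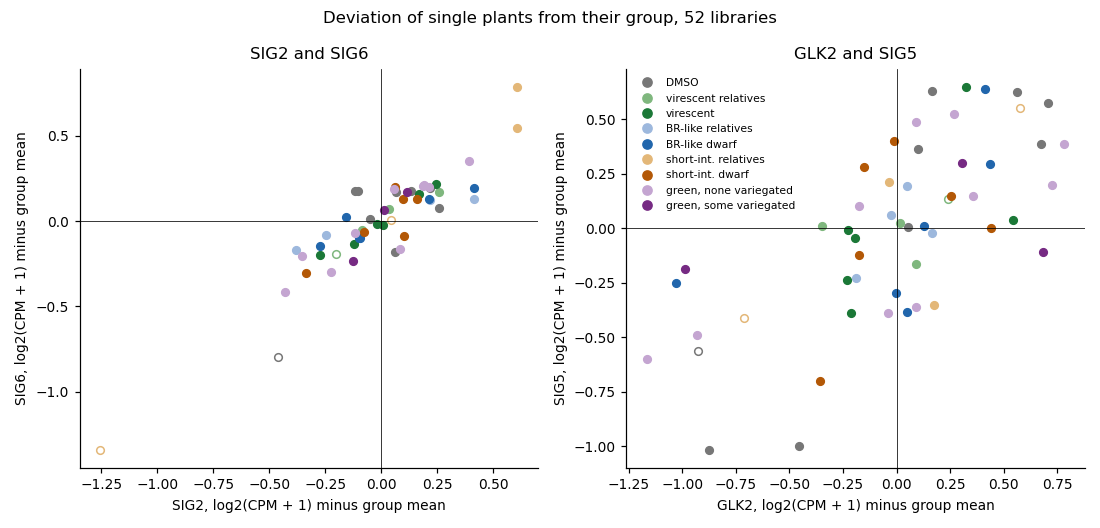
Deviation of each plant from its group mean in log2(CPM + 1) for SIG2 and SIG6 (left) and for GLK2 and SIG5 (right), over 52 libraries without the white plant; colours are groups and open points are libraries left out of the tests. SIG2 and SIG6 lie along a line (r = 0.90), with short-internode dwarf relative 2 at the lower left, and GLK2 and SIG5 are more scattered (r = 0.69).

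Among 14096 genes with a mean of at least 5 CPM, those most alike to each member over the 53 libraries were named as a description. SIG2 was most like CHLI2 (r = 0.916) and GSA2 (r = 0.904), both of chlorophyll synthesis, and EMB3136 (r = 0.908). SIG6 was most like CAF2 (r = 0.916), a chloroplast splicing factor, and UMAMIT13 (r = 0.914), and RPOTP most like YLMG1-1 (r = 0.897), then AT2G42710 (r = 0.886) and TIC110 (r = 0.875), a subunit of the plastid protein import machinery. SIG5 was most like PHT4;5 (r = 0.877), GLK2 like bZIP2 (r = 0.81) and CIPK5 (r = 0.807), and GNC like CIPK26 (r = 0.819) and COP1 (r = 0.794), the repressor of light signalling. GUN1 was most like PTAC2 (r = 0.73), a PEP-associated protein, and SIG1 like DGAT2 (r = 0.762) and AT3G53470 (r = 0.752), with NYC1, a chlorophyll b reductase, at r = 0.747. CGA1 was most like PUP10 (r = 0.792), which fell to r = 0.742 without the white plant. For GLK1 the resemblance rested in part on the white plant: SLP2 kept r = 0.868 without it, from 0.866, but scpl20 went from r = 0.856 to r = 0.543.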

How the data were processed

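Leaf poly(A) RNA of 53 plants was sequenced and grouped by the sample labels. The authors trimmed reads with Trim Galore and made estimated counts with Salmon against the Araport11 transcriptome, and the deposited table holds these counts per gene without normalization. They were rounded to whole numbers. The authors' deposited DESeq2 tables hold a signal column, each gene's average normalized count, used here only to find which libraries entered their fits: of 5 outliers the methods mention, 4 were found and left out, and the other was not identified. Their fold changes and p-values were not used. Versions of these tools are not given in the sources used here.

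Differences were tested with edgeR 4.0.16 (quasi-likelihood, TMM) in 1 fit per line with its relatives and DMSO plants, keeping genes that reached 10 normalized counts in 4 libraries or more, with Benjamini-Hochberg adjustment over all genes tested and a threshold of 0.05. Standard errors were derived from the test statistic and the fold change. The deposited counts give the depth, 29739361 to 116654254 per library. The test was checked on simulated data. DESeq2 1.42.0 was an alternative, as were other scaling, filters, libraries and the authors' stricter rule (adjusted p below 0.01 and absolute log2 fold change above 1). The white plant was compared over genes that reach 10 counts at mean depth in at least 4 of 14 libraries, which leaves out genes seen in it alone. Levels between genes were divided by exon length from RefSeq TAIR10.1, in which 27390 of 27501 identifiers were found and which lists SIG1 as SIGA and shares some synonyms between SIG1 and SIG2. Pairs of members were compared as deviations of log2(CPM + 1) from group means, shuffled within groups. All members are named, with the 3 most alike genes of each as candidates and the list genes with the largest changes. Members, lists and tests were chosen with earlier results of these data known. Nothing in the labels says that plants of a family were grown apart, so p-values measure the spread between these plants. Plastid-encoded genes and the polymerases RPOTm and RPOTmp were not analysed here.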

Additional observations from a re-analysis of the deposited data

Results flagged for a closer look

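In 3 cases a value lay far from the other plants of their group, by Dixon's criterion at the 95% level, among 80 combinations of member and group examined, of which chance gives about 1 in 20. Virescent plant 2 had GLK1 at 569 CPM, where the other 5 virescent plants were at 403 to 445 CPM. The same plant had SIG5 at 12 CPM against 5.31 to 7.49 CPM in the others. DMSO 2, one of the left-out libraries, had SIG6 at 54.7 CPM against 84.3 to 110 CPM in the other DMSO plants.

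Effects differed between lines, by a contrast of the phenotype effects in 1 edgeR fit, for 2 members. For GLK1 the effect was 0.72 higher on the log2 scale in the virescent than in the BR-like dwarf line (adjusted p = 0.0361), where 15.9% of all genes passed. Of the BR-like dwarf families only 1A_20 lay below the relatives in GLK1. For SIG1 the effect in the virescent line minus that in the short-internode dwarf line was -0.94 (adjusted p = 0.0211), where 5.16% of all genes passed. In that contrast the short-internode relatives, with 2 plants tested, are the low group.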

How the results depend on the processing

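The count of members passing in virescent plants against relatives was 2 and became 1 with a replicate block (CGA1 alone), 0 with either family alone and 0 under the stricter rule. Correlations of same-numbered plants' deviations were -0.37 to -0.073 in the virescent line, 0.098 to 0.454 in the BR-like dwarf line and -0.181 to -0.076 in the short-internode dwarf line, so the numbers were not taken as pairs, narrowly so in the BR-like dwarf line. The block also gave 0 in place of 2 for BR-like dwarf and 0 in place of 1 for short-internode dwarf against DMSO. Under the stricter rule, virescent against DMSO gave 1, and against DMSO both dwarf lines and the green plants gave 0. With all libraries, the count was 1 for BR-like dwarf and 0 for short-internode dwarf against DMSO, 1 for short-internode dwarf against relatives and 2 for those relatives against DMSO. DESeq2 gave 1 for each of these last comparisons. Without DMSO line C13 the counts against DMSO were 5 (virescent), 1 (its relatives), 6 (BR-like dwarf), 5 (short-internode dwarf), 5 (its relatives) and 3 (green plants), and 9 of 45 pairs passed.

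Leaving out 1 library at a time gave 0 to 2 members for virescent against relatives, 2 against DMSO, 0 to 4 for BR-like dwarf against DMSO, 0 to 1 for short-internode dwarf against relatives, 0 to 2 against DMSO, 0 to 1 for its relatives against DMSO, 1 for green plants against DMSO and 4 to 5 for the white plant. The causes were not tested. No passing value changed sign in any alternative.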
